A study of Mus musculus with 4 samples.

Results

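The 40 genes described here carry molecules across the blood-brain barrier. They are a list of solute carriers, ATP-binding cassette (ABC) transporters, receptors and caveolar or lipid transport genes, chosen by symbol with earlier results of these data known, and all 40 were found among the 21840 protein-coding genes of the annotation. Chromatin bound by RNA polymerase II (Pol II) was immunoprecipitated and sequenced from flow-sorted brain endothelial cells (ECs), and the peak lists of 2 groups with 2 libraries each were analysed. The old WT Cre group (labelled CdH5CRE) consisted of mice aged 20 to 23 mo that carry the CDH5-CreERT2 transgene, a tamoxifen-inducible Cre driven by the promoter of the endothelial gene for VE-cadherin. The young EC-K4KO group (labelled ECK4KO) consisted of mice aged 4 to 6 mo in which the same Cre was crossed with Klf4-flox, so that Klf4 is deleted in ECs. Tamoxifen was given in the same way to controls and knockouts, at 8 wk of age, and each library was made from 200000 sorted cells. The libraries are called old 1 and old 2 for old WT Cre and KO 1 and KO 2 for young EC-K4KO, by replicate number. Genotype and age differ together between these groups and cannot be told apart.

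Brain ECs are sealed by tight junctions and make few vesicles, so most nutrients enter the brain through carriers in the cell membrane, large molecules enter by receptor-mediated transcytosis, and ABC transporters pump lipophilic compounds back into the blood. Pol II gathers just downstream of the transcription start site (TSS) of genes that are transcribed or held ready for transcription, and is spread more thinly along the gene body. A peak is a stretch where the immunoprecipitated fragments exceed the background estimated around it, and a missing peak means only that this excess did not reach the caller's threshold.

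The libraries differed widely as a whole. The caller counted 22705175 to 65734178 fragments per library, and the lists held 35638 to 235591 peaks, with the longest list in the library with the fewest fragments, KO 2. Over all 21840 genes, 25.6% and 24.5% had a promoter peak in old 1 and old 2, and 10.7% and 67.6% in KO 1 and KO 2. Of 12 endothelial markers, 3, 4, 0 and 8 had a promoter peak in the same order of libraries, and Pecam1, Tek, Tie1 and Esam had none in any. Of 32 markers of pericytes, smooth muscle, astrocytes, microglia, neurons and oligodendrocytes, 9, 5, 3 and 23 had one. Klf4 had a promoter peak in both KO libraries and in neither old library, which says nothing about its transcript. The part of other cell types and of the libraries' peak yields in the results below was not tested. Replicates are separate samples by label, so any spread given here is the spread between these samples and may be technical.

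A promoter peak, one that overlaps the 1500 bp on either side of an annotated TSS, was present at 16 of the 40 transport genes (40%) in old 1 and at 18 (45%) in old 2. It was present at 5 (12.5%) in KO 1 and at 33 (82.5%) in KO 2. Against the shares of all genes given above, the transport genes were ahead in every library, and gene length was then taken into account. When each gene was given the share of genes of its own length (20 length classes), the shares to compare with were 29.0%, 28.8%, 12% and 73.9%. The transport genes exceeded these by 11 and 16.2 percentage points in the old libraries, by 0.529 points in KO 1 and by 8.64 points in KO 2. Olfactory receptor genes, which brain ECs should not use, had a promoter peak in 2.74% to 24.9% of 1133 genes, with the highest share again in KO 2. The group means were 42.5% ± 3.54 over the old and 47.5% ± 49.5 over the KO libraries (SD, n = 2), a difference of 5.0 points that lies inside the spread of the young pair. Without KO 1 the difference was 40 points and without KO 2 it was -30 points. When every list was cut to the length of the shortest, by q, the marked genes were 9 and 15 in old 1 and old 2 and 5 and 13 in KO 1 and KO 2, and the excess over genes of the same length was 8.86, 10.7, 0.529 and -0.208 points. At q of at most 1e-05 this excess was 10.2 and 4.15 points in old 1 and old 2 and -1.29 and 8.38 points in KO 1 and KO 2.

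**Figure D1:**
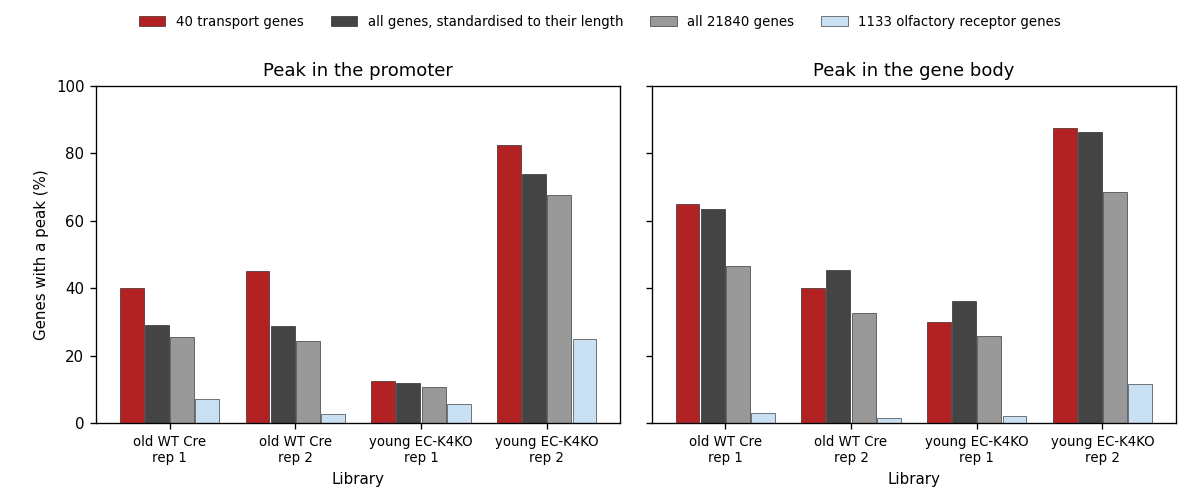
Share of genes (%) with a Pol II peak in the promoter (left) and in the gene body (right) in each of the 4 libraries, for the 40 transport genes (red), all genes standardised to the length of the transport genes (dark grey), all 21840 genes (grey) and 1133 olfactory receptor genes (light blue). KO 1 has the lowest red bars (12.5% and 30%) and KO 2 the highest (82.5% and 87.5%), and the grey bars move with them.

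The transport genes can be ordered by the number of libraries that marked them. A promoter peak in all 4 libraries was found at Slc5a6, Cav1 and Abcc5, 3 of 40 (7.5%) against 2.23% of all genes. Abcc5 alone was left in this group at q of at most 1e-05 (0.43% of all genes) and at a fold enrichment of at least 4 (0.888%), and none of the 40 with lists of equal length (0.98%). Slc5a6 was then marked in 3, 2 and 3 libraries. At least 3 libraries marked 10 of the 40 (25%), against 13.1% of all genes, which adds Abca1, Insr, Slc16a1, Slc3a2, Slc40a1, Slc6a6 and Slc7a1. This count was 4 (10%, against 4.34%) at that q, 4 (10%, against 6.45%) at that fold and 5 (12.5%, against 5.18%) with equal lists. It was 13 (32.5%, against 18.3%) with a TSS window of 3000 bp and 8 (20%, against 8.64%) with 500 bp. Both old libraries marked 10 (25%, against 10.1%), and both KO libraries marked 4 (10%, against 9.16%). Abcb1a was the 1 gene with a peak in both old libraries and in neither KO library (2.5%, against 0.783%), a pattern that ended with a TSS window of 3000 bp, and none had the opposite pattern (against 3.13%). No library marked Slc16a4, Slco1a4 or Ager (7.5%, against 25.4%). KO 2 alone marked 12 (30%, against 30.6%), which is the share of genes in general.

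**Figure D2:**
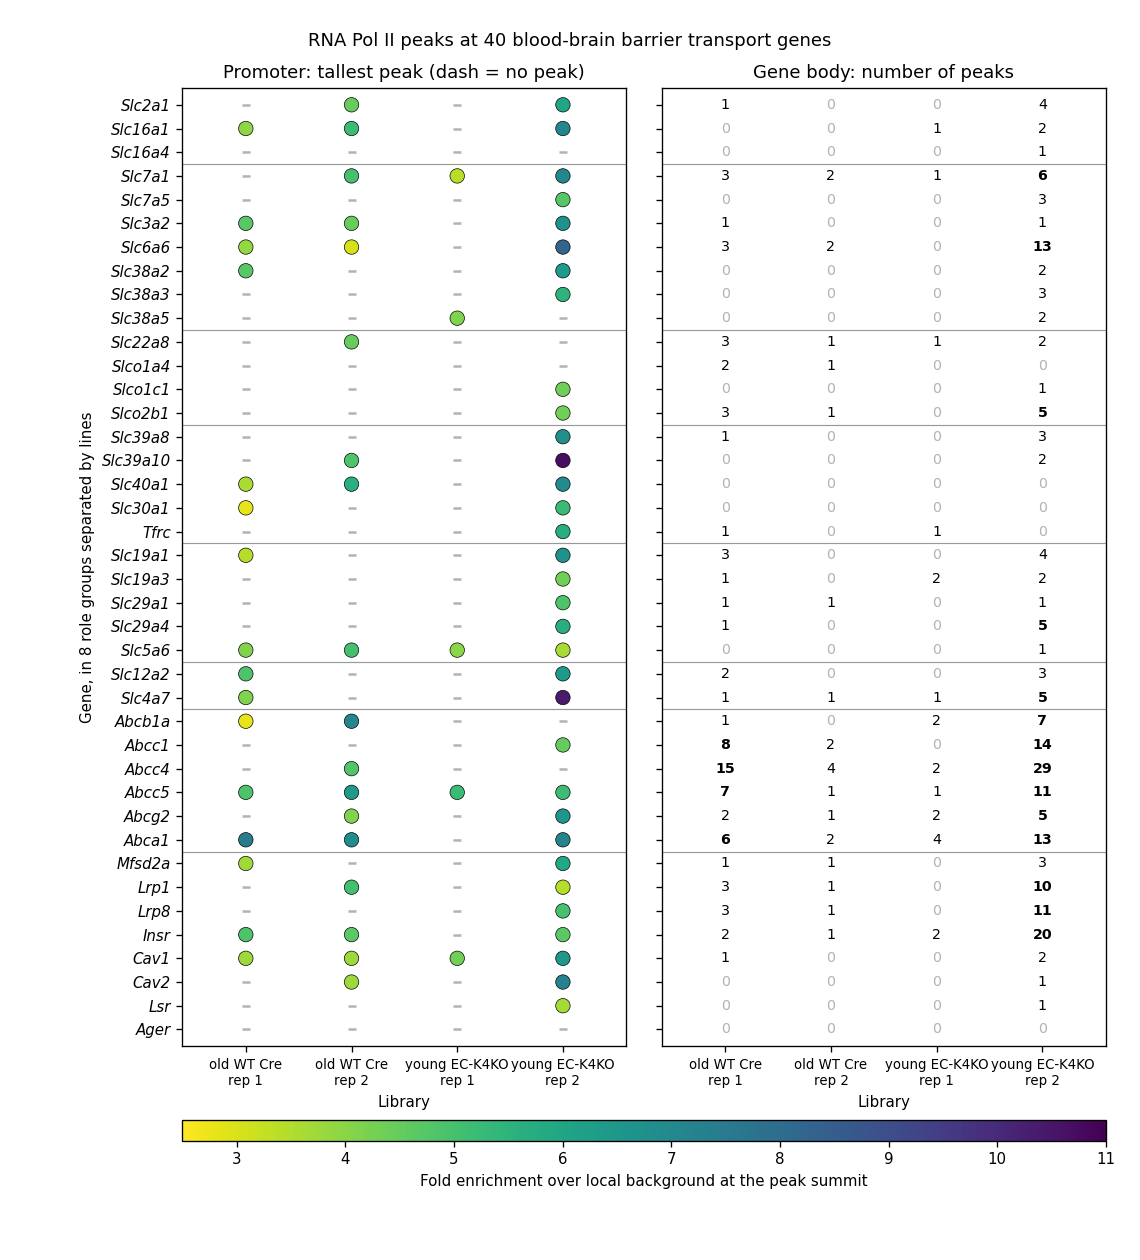
The 40 transport genes (rows, in 8 groups by role) in the 4 libraries (columns). Left, a dot marks a promoter peak and its colour the fold enrichment of the tallest one over the local background, a dash marks no peak. Right, the number of peaks in the gene body. Slc5a6, Abcc5 and Cav1 have a dot in all 4 columns, and the 6 ABC transporters have gene body peaks in most columns.

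Among the ABC transporters, Abcc5, which exports cyclic nucleotides and other organic anions, was marked in every library. Its tallest promoter peak had a fold enrichment over the local background of 4.88 and 6.42 in old 1 and old 2 and of 5.22 and 5.15 in KO 1 and KO 2. The groups overlapped, and the difference in log2 fold enrichment, young EC-K4KO minus old WT Cre, was -0.11 (p = 1.0 by a two-sided exact permutation test, in which 2 against 2 libraries cannot give less than 0.33). The peaks of all 4 libraries merged into the region chr16:20425809-20426274 (mm10), with summits 145 to 270 bp downstream of the nearest TSS. Both KO libraries had a further peak just upstream of the TSS, with summits at -77 and -241 bp, that neither old library had, and these upstream peaks were the taller ones. In the region of all 4 libraries the fold enrichments were 4.88 and 6.42 in the old and 3.81 and 4.73 in the KO libraries, with pileups of 25 and 17 and of 14 and 15 fragments that are not scaled to library size. The difference for the tallest peaks turned to 0.35 on pileup scaled to library size and to 0.09 without old 2. The 250 bases upstream of the TSS (chr16:20426395-20426644, minus strand, RefSeq, GRCm38.p6) show that stretch, and the capitals mark the 166 bases covered by a peak in at least 2 libraries, here those of young EC-K4KO.
Abcc5: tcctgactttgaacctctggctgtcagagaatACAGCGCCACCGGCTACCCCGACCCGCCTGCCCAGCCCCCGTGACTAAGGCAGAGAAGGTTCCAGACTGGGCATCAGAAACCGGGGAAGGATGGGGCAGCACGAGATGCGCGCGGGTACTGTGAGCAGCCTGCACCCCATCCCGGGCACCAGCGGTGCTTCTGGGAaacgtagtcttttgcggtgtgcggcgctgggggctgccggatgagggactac

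Abca1, the cholesterol efflux transporter, had promoter peaks in 3 libraries and none in KO 1. Fold enrichments of the tallest were 7.51 and 6.86 in the old libraries and 7.19 in KO 2, and in old 1 the peak stood at the 99th percentile of q among genes with a promoter peak. The tallest peaks were not all in one place. A region with summits 1017 to 1092 bp downstream of the TSS held peaks of the 3 libraries (3.94-fold, 6.86-fold and 7.19-fold), and another, which spanned the TSS and had summits 37 and 131 bp downstream of it, held those of old 1 (7.51-fold) and KO 2 (6.41-fold). In the bases upstream of the TSS (chr4:53159896-53160145, minus strand, RefSeq, GRCm38.p6), the 55 capitals next to the TSS are covered in both of these libraries and include a TATAAA match at -29 to -24.
Abca1: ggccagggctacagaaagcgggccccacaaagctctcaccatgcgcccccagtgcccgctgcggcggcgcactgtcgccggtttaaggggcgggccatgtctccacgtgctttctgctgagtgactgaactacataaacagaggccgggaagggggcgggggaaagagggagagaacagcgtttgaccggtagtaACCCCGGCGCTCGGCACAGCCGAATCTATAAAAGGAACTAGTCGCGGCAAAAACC

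Abcb1a, which encodes P-glycoprotein, the main drug efflux pump of the barrier, had a promoter peak of 2.82-fold in old 1 and of 7.08-fold in old 2. The merged region, chr5:8659967-8660616, spanned the TSS, and the summits lay 261 and 429 bp downstream of it. The first of these peaks was weak, at the 1.58th percentile of q in its library, and the second was at the 91.8th. Neither KO library had a promoter peak, although both had peaks in the gene body, 2 and 7 of them. Both of those in KO 1 and 1 of those in KO 2 lay in a stretch that is fully masked as repeats, chr5:8710281-8712170. At q of at most 1e-05, at a fold enrichment of at least 4 or with lists of equal length, Abcb1a was marked in old 2 alone. With a TSS window of 3000 bp it was marked in 3 libraries, both old ones and KO 1. The RefSeq table places an Abcb1a start elsewhere, and no library had a peak in the 250 bases upstream of it.

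The other 3 ABC transporters were marked in 1 or 2 libraries. Abcg2, the breast cancer resistance protein and a second drug efflux pump of the barrier, had peaks of 4.10-fold in old 2 and 6.53-fold in KO 2, and with a TSS window of 3000 bp it was marked in 4 libraries. Abcc4 had 1 of 4.80-fold in old 2, and Abcc1 had 1 of 4.51-fold in KO 2.

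At Cav1, which encodes caveolin-1, the coat protein of caveolae, all 4 libraries had a promoter peak but the old and KO peaks lay in different places. Cav1 had fold enrichments of 3.76 and 3.73 in old 1 and old 2 and of 4.35 and 6.49 in KO 1 and KO 2. Both KO values lay above both old ones, as at 16.5% of the 486 genes with a promoter peak in every library, and the log2 difference was 0.51 (p = 0.33 by the two-sided exact permutation test, its lower limit). Both old libraries had a peak in chr6:17306244-17306551, with summits 86 and -64 bp from a TSS of the upstream cluster of starts. Both KO libraries had theirs in chr6:17307874-17308228, with summits 282 and 343 bp downstream of the start at 17307640, which is 1 of 5 annotated for the gene. Old 1 had a second peak at that downstream start, chr6:17307501-17307734. No base was shared between an old and a KO Cav1 peak. The old peaks were low, at the 37.5th and 4.34th percentile of q among genes with a promoter peak in old 1 and old 2, and neither was left at q of at most 1e-05, at a fold enrichment of at least 4 or with lists of equal length. The KO peaks stood at the 46th and 53.3rd percentile, and KO 2 alone was left at that q, KO 1 alone with equal lists and both at that fold. For comparison, the promoter peaks of old 1 and KO 1 shared at least 1 bp at 51.8% of the genes with a peak in both, and those of old 2 and KO 2 at 74.6%. The bases upstream of the first start (chr6:17306085-17306334, plus strand, RefSeq, GRCm38.p6) are shown because the old peaks reach into them, and the 70 capitals are covered in both old libraries and in no KO library.
Cav1: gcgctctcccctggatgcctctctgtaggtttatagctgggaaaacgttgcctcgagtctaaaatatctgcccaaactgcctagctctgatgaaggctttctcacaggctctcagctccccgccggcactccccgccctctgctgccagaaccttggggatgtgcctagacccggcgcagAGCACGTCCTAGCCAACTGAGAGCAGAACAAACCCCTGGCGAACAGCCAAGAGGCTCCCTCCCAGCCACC

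Cav2, whose product joins caveolin-1 in caveolae and whose gene lies next to Cav1, had promoter peaks of 3.73-fold in old 2 and 7.24-fold in KO 2. The latter had its summit at -1219 bp from the TSS, and a second peak of that library, of 5.11-fold, overlapped the one of old 2. Mfsd2a, the carrier of lysophosphatidylcholine that holds back vesicle traffic in brain ECs, had 3.70-fold in old 1 and 5.90-fold in KO 2. The tallest Mfsd2a peaks of both lay in chr4:122960689-122961328, with summits 174 and 198 bp downstream of the TSS, and a noncoding gene on the other strand starts 121 bp away, so reads at this promoter cannot be assigned to either gene.

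Of the receptors, Insr, the insulin receptor, was marked in both old libraries (4.88-fold and 4.68-fold) and in KO 2 (4.66-fold). These tallest peaks lay apart, with summits at -856, 392 and 1124 bp from the TSS. A region of 1051 bp around the TSS held at least 1 peak of each of these 3 libraries. Lrp1, which carries amyloid-beta and other ligands, had 5.05-fold in old 2 and 3.45-fold in KO 2, with summits at -684 and -647 bp from the TSS. Lrp8 and Lsr, the lipolysis-stimulated receptor of tricellular junctions, were marked in KO 2 alone, and both have a gene that starts close by on the other strand, Lrp8os3 at 213 bp and Fam187b at 340 bp. Ager, the RAGE receptor, had no peak at all, in the promoter or the gene body of its 3075 bp.

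Among vitamin and nucleoside carriers, Slc5a6, the biotin and pantothenate transporter, was marked in every library. Fold enrichments were 4.12 and 5.04 in old 1 and old 2 and 3.97 and 3.62 in KO 1 and KO 2. Both old values lay above both KO ones, as at 3.5% of the 486 genes, with a log2 difference of -0.26 (p = 0.33 by the two-sided exact permutation test, its lower limit). On pileup scaled to library size the direction reversed, to 0.60. The peaks merged into chr5:31048329-31048907, although those of the old libraries did not share a base. Atraid starts 73 bp away on the other strand, so these peaks cannot be assigned to either gene. Slc19a1, the reduced folate carrier, was marked in old 1 (3.43-fold) and KO 2 (6.67-fold). Slc19a3, a thiamine carrier, Slc29a1, an equilibrative nucleoside transporter, and Slc29a4 were marked in KO 2 alone.

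Of 7 amino acid carriers, 3, 3, 2 and 6 were marked in old 1 and old 2 and KO 1 and KO 2. Slc7a1, the cationic amino acid transporter, had 5.0-fold in old 2, 3.40-fold in KO 1 and 7.06-fold in KO 2. It was the 1 amino acid carrier marked in both KO libraries, and its peaks in the 3 libraries overlapped at the TSS. In the 250 bases upstream (chr5:148399905-148400154, minus strand, RefSeq, GRCm38.p6) the 123 capitals are covered in at least 2 libraries, and 116 of them in 3.
Slc7a1: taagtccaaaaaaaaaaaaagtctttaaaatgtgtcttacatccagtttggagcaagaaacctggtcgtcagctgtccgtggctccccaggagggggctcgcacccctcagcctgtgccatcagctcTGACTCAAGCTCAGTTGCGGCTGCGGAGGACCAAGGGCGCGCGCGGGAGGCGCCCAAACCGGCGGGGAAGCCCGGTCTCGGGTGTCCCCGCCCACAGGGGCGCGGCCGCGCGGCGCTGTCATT

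Slc3a2, the heavy chain that carries the large neutral amino acid transporter to the membrane, had 4.71-fold and 4.47-fold in the old libraries and 6.66-fold in KO 2. Its partner Slc7a5, the light chain of the same transporter, was marked in KO 2 alone, at 4.73-fold with the summit at -1235 bp and at 3.14-fold with the summit 399 bp downstream of the TSS. The noncoding gene BC048644 starts 139 bp from Slc7a5 on the other strand. The Slc3a2 peaks named above lay at the starts inside the gene, in chr19:8713427-8713929. At the most upstream start, where Snhg1, a host gene of small nucleolar RNAs, begins 106 bp away on the other strand, KO 2 alone had peaks, of up to 5.53-fold. Slc6a6, the taurine transporter, had 3.87-fold and 3.06-fold in the old libraries, with summits 985 to 1339 bp downstream of the TSS, and 8.31-fold in KO 2, with its summit at 194 bp. The old and KO Slc6a6 peaks did not overlap. Of the glutamine carriers, Slc38a2 was marked in old 1 and KO 2, Slc38a3 in KO 2 and Slc38a5 in KO 1.

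Slc2a1, which encodes the barrier's glucose transporter GLUT1, had promoter peaks of 4.47-fold in old 2 and 5.96-fold in KO 2. The summits lay 221 and 506 bp downstream of the TSS, and the peaks did not overlap. Slc16a1, which encodes the lactate and ketone body carrier MCT1, had 3.94-fold and 5.22-fold in the old libraries and 7.07-fold in KO 2, all within chr3:104638641-104639522 and with summits 47 to 152 bp downstream of the TSS. KO 1 had no peak at either promoter. In that library 10.7% of all genes had one. Slc16a4, another monocarboxylate carrier of the same family, had no promoter peak in any library.

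Metal carriers were marked in 2, 2, 0 and 5 of 5 genes, in libraries that marked 25.6%, 24.5%, 10.7% and 67.6% of all genes, against which the counts of the other roles can be read too. Slc40a1, which encodes ferroportin, the iron exporter, had 3.57-fold and 5.59-fold in the old libraries and 6.96-fold in KO 2, with the summit within 91 bp of the TSS in each. Tfrc, the transferrin receptor through which iron enters the cell, was marked in KO 2 alone (5.66-fold). Slc39a10, a zinc importer, had the highest promoter value of the 40 genes, 10.7-fold in KO 2, and 4.85-fold in old 2. Slc30a1, a zinc exporter, had 2.82-fold in old 1 and 5.24-fold in KO 2, and Slc39a8 was marked in the latter alone. The 2 ion carriers, Slc12a2, the sodium, potassium and chloride cotransporter, and Slc4a7, a sodium and bicarbonate cotransporter, were both marked in old 1 (4.88-fold and 4.13-fold) and KO 2 (6.43-fold and 10.4-fold).

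Of the 4 organic anion and thyroid hormone carriers, 0, 1, 0 and 2 were marked in the promoter. Slco1a4, a carrier of bile acids and drugs that is abundant at the mouse barrier, had no promoter peak in any library and gene body peaks in both old libraries (2 and 1) but in neither KO library, a pattern of 0.504% of all genes. At q of at most 1e-05 the peak of old 2 was not left, and this pattern ended. The opposite pattern was found at 1 of the 40 (2.5%), Slc16a1, against 2.61%. Slco1c1, the thyroxine carrier, and Slco2b1 were marked in KO 2 alone.

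Slc22a8, the organic anion transporter OAT3, shows how a count of promoter peaks rests on the annotation. By the GENCODE starts it had 1 promoter peak, in old 2 (4.47-fold), with its summit 878 bp downstream of the nearest TSS. Peaks of 3 libraries fell together further on, in chr19:8592936-8593314, with fold enrichments of 3.52 and 5.22 in old 1 and old 2 and 4.82 in KO 2. That stretch was counted as gene body, but it holds the RefSeq start of the gene at 8593182, which lies 1893 bp from the nearest GENCODE start. KO 1 had its peak with the summit 2648 bp downstream of the GENCODE start and not on this stretch. With RefSeq starts added, an alternative chosen after the data were seen, Slc22a8 was marked in all 4 libraries, and the counts of marked transport genes became 17, 18, 6 and 35, with all-gene shares of 26%, 24.8%, 10.9% and 68.1%. The sequence upstream of the RefSeq start (chr19:8592932-8593181, plus strand, RefSeq, GRCm38.p6), chosen for display after its values were seen, has 238 capitals for bases covered in at least 2 libraries, of which 155 are covered in 3.
Slc22a8: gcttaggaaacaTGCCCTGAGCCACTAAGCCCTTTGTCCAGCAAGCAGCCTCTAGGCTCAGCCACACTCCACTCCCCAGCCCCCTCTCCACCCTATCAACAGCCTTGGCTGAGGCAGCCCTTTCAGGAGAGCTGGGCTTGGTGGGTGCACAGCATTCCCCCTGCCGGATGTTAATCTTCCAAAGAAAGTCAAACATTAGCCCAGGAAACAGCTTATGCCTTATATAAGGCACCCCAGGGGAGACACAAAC

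**Figure D3:**
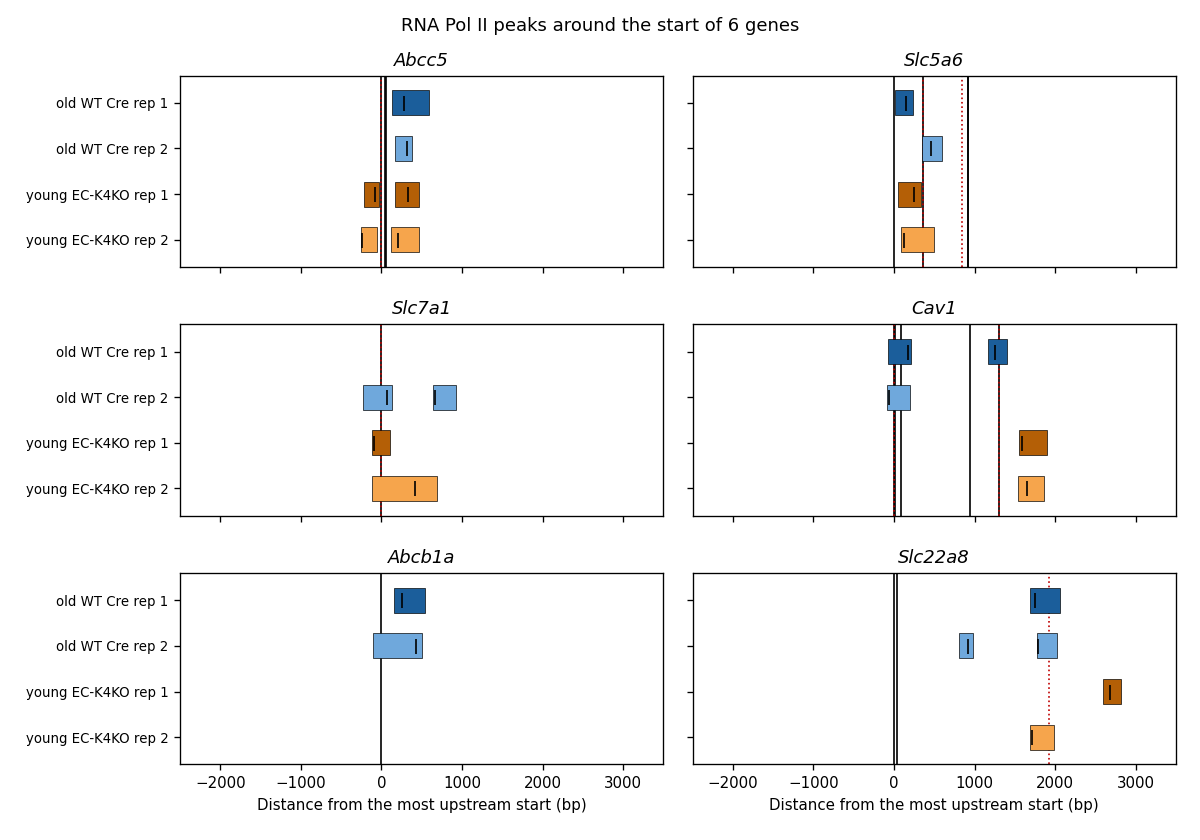
Promoter and nearby gene body peaks of 6 genes in the 4 libraries. The horizontal axis is the distance in bp from the most upstream GENCODE start in the direction of transcription, each bar spans 1 peak and the tick in it is the summit. Black lines are GENCODE starts and dotted red lines RefSeq starts. Abcc5 bars line up in all 4 rows, Cav1 bars of the old and KO rows do not meet, Abcb1a has promoter bars in the old rows alone, and 3 of 4 Slc22a8 rows have a bar on the RefSeq start.

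Where both libraries of a pair marked a gene, the places were compared. In the old pair, 8 of the 10 transport genes with a peak in both libraries had peaks that shared at least 1 bp (80.0%, against 60.4% of such genes), the exceptions being Slc5a6 and Slc3a2. In the KO pair it was 4 of 4 (against 66.5%). Across groups it was 2 of 3 for old 1 and KO 1, 13 of 15 for old 1 and KO 2 (against 64.5%), 2 of 4 for old 2 and KO 1 (against 54.6%) and 12 of 15 for old 2 and KO 2. The median summit of the tallest peak lay 198.5 and 130.0 bp downstream of the nearest TSS in old 1 and old 2, 77.0 bp upstream (-77.0) in KO 1, where 5 genes count, and 157.0 bp downstream in KO 2. For all genes with a promoter peak the medians were 138, 130.0, 53 and 98 bp downstream. The median fold enrichment of the transport genes was 4.03, 4.82, 4.14 and 5.90 in the 4 libraries, against 3.94, 5.0, 4.16 and 5.81 for all genes with a promoter peak. The heights of these promoter peaks were thus close to those of other genes in the same library.

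The upstream windows were searched for short motifs on both strands, over the 250 bases before each start in the RefSeq table, where 33 of the 40 genes have 54 starts. GGGNGTGG, the core bound by KLF factors, was present in 11 of the 54 windows (20.4%) and in 15.9% of all 32851 windows. GGGCGG, the core bound by Sp factors, was present in 25 (46.3%) against 32.7%. Of the genes marked in at least 3 libraries, 7 have a window. The KLF letters were found at 3 of these 7, against 17.9% of all genes with a window. They were Slc16a1, Slc5a6 and, at a start other than the one shown above, Slc7a1. CACGTG, the E-box, was in 6 windows (11.1%, against 6.02%), among them Abca1 and Slc16a1, and TATAAA was in 6 (11.1%, against 12.4%). CCGGAAG, an ETS core, and CTTTGAT, a TCF/LEF core, were in 2 windows each (3.7%, against 6.91% and 3.21%). One KLF match, at Lsr, overlapped an Sp match, and no other matches of different motifs overlapped. These are matches of letters in the windows and not sites of binding.

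In the gene body, that is, between the start and end of the gene outside the TSS windows, 26, 16, 12 and 35 of the 40 genes had a peak in old 1 and old 2 and KO 1 and KO 2 (65%, 40%, 30% and 87.5%). Over all genes the shares were 46.5%, 32.7%, 25.9% and 68.5%, and standardised to gene length they were 63.5%, 45.4%, 36.3% and 86.2%. The transport genes therefore differed from genes of their length by 1.47, -5.45, -6.26 and 1.28 points, in no library by as much as in the old libraries at promoters. Their 76, 23, 20 and 198 gene body peaks came to 0.38, 0.115, 0.10 and 0.99 peaks per 10 kb, against 0.335, 0.154, 0.124 and 0.979 for all genes.

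**Figure D4:**
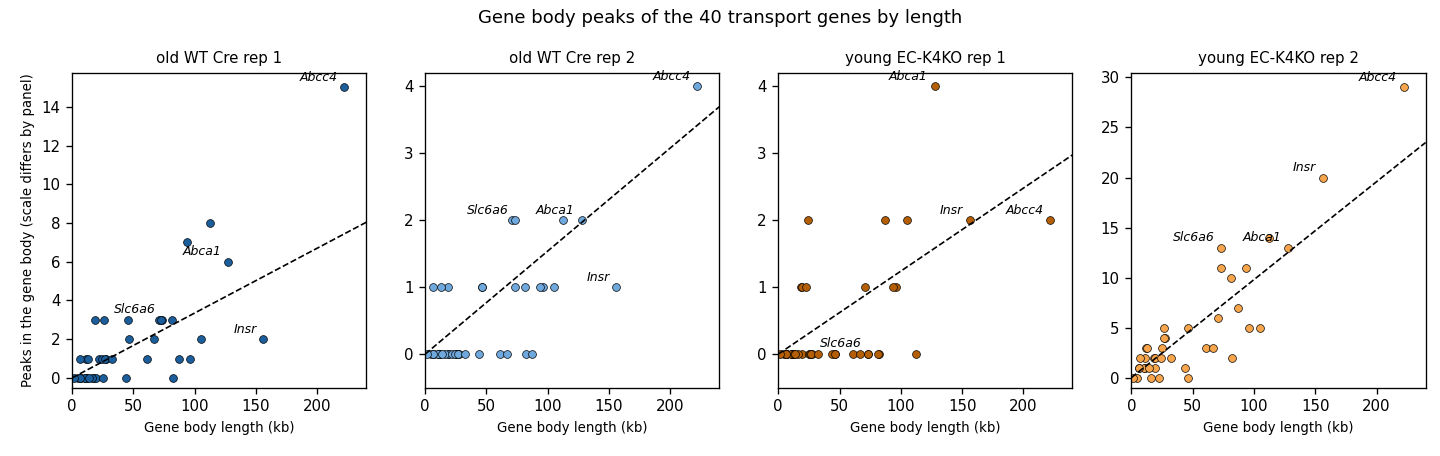
Number of gene body peaks against gene body length (kb) for the 40 transport genes in each library, 1 point per gene. The dashed line is the density over all genes in that library (0.335, 0.154, 0.124 and 0.979 peaks per 10 kb), and the vertical scale differs between panels. Abcc4, the longest gene, has 15, 4, 2 and 29 peaks.

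Among the ABC transporters, gene body peaks were present at 6, 5, 5 and 6 of 6 genes, where genes of their length had shares of 93.6%, 81.3%, 75.2% and 99.5%. The longest, Abcc4, of 223528 bp, had 15, 4, 2 and 29 peaks. Per length, the genes with most gene body peaks on average over the libraries were Slc29a1 (1.20 per 10 kb), Mfsd2a (0.974), Slc22a8 (0.919), Slc38a5 (0.711) and Slc19a1 (0.667). These are short genes on which few peaks weigh heavily, and the Slc38a5 value rests on 2 peaks of KO 2. The densities of Mfsd2a and Slc19a1 were also highest in KO 2 (2.34 and 1.52 per 10 kb). That of Slc22a8 was highest in old 1 (1.58), and that of Slc29a1 was equal in the libraries with a peak. Slc29a1 had 1 peak in each of 3 libraries, all near its 3′ end, at 92.5% to 98.2% of the way along the gene. The windows around its 8 TSS leave 6261 of its 14407 bp as gene body, most of them toward that end.

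Few gene body peaks recurred in place. The peaks of the 4 libraries merged into 282 regions in 37 genes, of which 258 were seen in 1 library. Regions seen in all 4 libraries numbered 3 (1.06%, against 0.381% of all gene body regions of protein-coding genes), and regions in at least 3 numbered 7 (2.48%, against 1.67%). The 3 were in ABC transporters, which held 117 of the 282 regions (41.5%). The region in an intron of Abcg2, chr6:58610820-58611077, held the gene body peak with the highest fold enrichment of the 40 genes in every library, at 11.5-fold and 8.20-fold in old 1 and old 2 and 15.4-fold and 11.8-fold in KO 1 and KO 2. It lay 14277 bp downstream of the nearest Abcg2 TSS, and its pileup reached 60, 21, 51 and 27 fragments. The 171 bases covered in all 4 libraries (chr6:58610855-58611025, plus strand, RefSeq, GRCm38.p6) are shown with repeat-masked bases in lower case and all others in capitals. A 50-base word from its middle occurs once in the genome. This stretch was chosen for display after its values were seen.
Abcg2 intron: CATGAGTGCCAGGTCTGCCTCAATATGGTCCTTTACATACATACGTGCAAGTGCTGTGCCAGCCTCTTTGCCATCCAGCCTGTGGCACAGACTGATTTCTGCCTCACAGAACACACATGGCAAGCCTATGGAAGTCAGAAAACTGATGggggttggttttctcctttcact

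The region in an intron of Abcc4, chr14:118610824-118611038, was lower, at 3.90-fold and 5.22-fold in the old libraries and 3.12-fold and 4.53-fold in the KO libraries, and its middle word also occurs once. The region in Abca1, chr4:53058150-53059308, overlaps an exon, and its fold enrichments were 3.94 and 5.45 in the old libraries and 4.78 and 7.33 in the KO libraries. All of the 255 bases that the 4 libraries share there are masked as repeats, and the middle word occurs at 2 places. Among regions of 3 libraries, that of Abcb1a, chr5:8710281-8712170, is fully masked, and a 50-base word from the middle of the 176 bases that the 3 libraries share occurs at 20 places. It was seen in old 1 and both KO libraries, at 5.45-fold, 6.06-fold and 6.67-fold for the tallest peak. Of the remaining regions of 3 libraries, those of Slc6a6 and Slc22a8 hold no masked base, and the bases shared at Mfsd2a are 98.1% masked, with a middle word that occurs at 3 places.

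The other transport genes set beside the list, 36 carriers, pumps and components of endocytosis and caveolae, had a promoter peak in 10, 14, 2 and 33 of 36 cases. Their share was below its length-standardised value in old 1 (27.8% against 29.2%) and KO 1 (5.56% against 11.9%) and above it in old 2 (38.9% against 28.7%) and KO 2 (91.7% against 74.0%). None was marked in all 4 libraries. Cltc, the clathrin heavy chain, was marked in 3 libraries, with 5.97-fold in old 2 and 6.57-fold and 8.29-fold in the KO libraries. Plvap, which marks vessels with fenestrated or leaky endothelium, was marked in old 2 (3.90-fold) and KO 1 (3.07-fold). Both genes were singled out after their values were seen.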

How the data were processed

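RNA Pol II ChIP-seq peak lists of flow-sorted mouse brain ECs were analysed, 2 libraries from each of the groups old WT Cre and young EC-K4KO. According to the study's methods, reads were trimmed with TrimGalore (0.5.0) and aligned to mm10 with Bowtie2 (2.3.0), duplicates were removed with Picard (2.9.2) and SAMtools (1.9), and peaks were called per library with MACS2 (2.2.6). Per the file headers the version was 2.2.7.1, the cutoff lay at a q-value of 0.01, no control library was used, and all duplicates still in the input were kept at calling. For each peak the authors deposited the pileup (coverage signal in fragments at the summit), the fold enrichment (a ratio of that pileup to the background estimated around it), and −log10 of the p-value and q-value. None is scaled between libraries. Because the background is taken from the library itself, fold enrichment depends on its depth and noise, and a peak call even more so. The smallest pileup called was 13, 8, 9 and 7 fragments. The narrow peak and summit lists hold the same peaks and were not used.

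Genes and TSS were those of protein-coding transcripts in the GENCODE M21 basic annotation. Promoter peaks have a base no more than 1500 bp from a TSS, gene body peaks have their summit elsewhere in the gene, and regions merge peaks that share at least 1 bp. Shares were standardised over 20 classes of gene length. Single genes were compared by exact permutation of the log2 fold enrichment over the 4 libraries. Sequences and repeat masking are from RefSeq (GRCm38.p6), and 33 of 40 genes matched the promoter table. The members and gene lists were chosen with earlier results of these data known. Genes described one by one are those with a promoter peak in at least 3 libraries and those marked in 1 group alone. Also described are 8 commonly used barrier genes and the 5 with most gene body peaks per length. The rest are given by name and by the libraries that marked them, some with the fold enrichment of the tallest promoter peak. Promoter sequences shown are those of the first kind that lie outside exons and are covered by peaks of at least 2 libraries, plus Slc22a8. Results were recomputed with lists of equal length, q of at most 1e-05, fold enrichment of at least 4, other TSS windows and rules, other length classes, autosomes alone, leaving out each replicate, and a replicate block. The procedure was tested on simulated data with planted peaks. Python 3.11.15, numpy 2.4.6, pandas 2.3.3 and scipy 1.17.1 were used.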

Additional observations from a re-analysis of the deposited data

How the results depend on the processing

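The counts of marked genes depend on the threshold, for all genes as for these, and all-gene shares stand in brackets. A missing peak says only that the threshold was not reached. At q of at most 1e-05, promoter peaks were present at 8 genes in old 2 (13.4%) and 1 in KO 1 (3.36%), at 4 in both old (3.77%) and 1 in both KO libraries (2.67%), and gene body peaks at 8 in old 2 (21.2%) and 6 in KO 1 (11.2%). With lists cut to equal length, promoter counts were 9 in old 1 (11.8%), 13 in KO 2 (27.7%), 5 in both old (4.74%) and 1 in both KO libraries (5.24%), and gene body counts were 16 in old 1 (30.5%) and 16 in KO 2 (29.6%). With a fold enrichment of at least 4, promoter counts were 8 in old 1 (11.7%), 3 in KO 1 (6.56%), 5 in both old (4.58%) and 2 in both KO libraries (5.52%), and the gene body count in old 1 was 16 (29.5%). The bracketed shares do not allow for gene length. Standardised to it, gene body shares with equal lists were 43.7% in old 1 and 41.1% in KO 2. They were 42.6% in old 1 at that fold and 29.7% in old 2 at q of at most 1e-05. The transport genes lay below each of these standardised shares, and in KO 1 at that q they were level with genes of their length. With a window of 3000 bp KO 1 had 8 (14.1%), and with 500 bp the 4 libraries had 11, 14, 4 and 27 (18.3%, 19.9%, 7.55% and 56.3%). These settings call fewer or more peaks by construction. The number of libraries fell for 12 genes with 500 bp (Slc6a6 from 3 to 1, Lrp1, Slc4a7 and Slc38a2 from 2 to 0), for 13 at the fold of at least 4, 21 at the stricter q and 25 with equal lists, rose for 6 with 3000 bp, and changed for none when the summit had to lie in the window. Leaving out 1 replicate leaves a single library in a group, so the count for both libraries became 16 to 18 in old WT Cre and 5 to 33 in young EC-K4KO. The difference in group shares ranged from -30 to 40 points over the libraries left out. It was -7.5 points with equal lists and 13.8 points at q of at most 1e-05, against 5.0. The excess over length-standardised shares stayed positive in both old libraries under every alternative run (4.15 to 16.5 points) and changed sign in KO 1 (-2.21 on autosomes, -1.29 at the stricter q, -0.128 at a fold of at least 4) and in KO 2 (-0.208 with equal lists).

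For the 3 genes marked everywhere, the values in Slc5a6, Cav1 and Abcc5 with the replicate block were -0.26, 0.51 and -0.11 on the log2 scale (exact sign-flip test, p = 0.5, 0.5 and 1.0, where 0.5 is the smallest possible). The labels do not say whether same-numbered libraries belong together. Their deviations correlated at 0.0729 over 486 genes, which cannot decide this, because a shift common to a whole library does not enter a correlation. On pileup scaled to library size Slc5a6 turned to 0.60 and Abcc5 to 0.35, and without old 2 Abcc5 turned to 0.09, with the cause not tested. When each library was left out in turn, the values ran from -0.41 to -0.12 for Slc5a6, 0.22 to 0.79 for Cav1 and -0.31 to 0.09 for Abcc5. Slc5a6 and Cav1 lost a peak at the stricter q and at a fold of at least 4, and all 3 with equal lists, so they could not be compared there.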
